A study of Mus musculus with 4 samples.

Results

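Cytosolic ribosomal protein genes were examined in CD45+ cells of mouse epididymal white adipose tissue (eWAT) under 2 diets. Members were taken by name: Rpl or Rps followed by a number with an optional A, l or X, together with Rpsa, Rplp0, Rplp1 and Rplp2, leaving out the Rps6k kinases and names with -ps. This rule took 82 of 35869 listed genes, of which 47 belong to the large subunit, 32 to the small subunit and 3 to the stalk. The rule used no measured value.

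The cells came from male WT C57BL/6 mice that received a normal diet (ND) or a high-fat diet (HFD) for 12 weeks from 8 weeks of age. Immune cells were taken from the stromal vascular fraction of eWAT with CD45 microbeads, and poly(A) RNA was sequenced with a stranded kit. There were 2 libraries per diet, named here ND-1, ND-2, HFD-1 and HFD-2, and how many mice went into each was not given in the sources used here, so p-values measure the spread between these libraries, which may be technical. Genotype, sex and strain were shared by both groups. Ptprc, the gene of CD45, was present at 53.7 to 59.4 TPM in the 4 libraries. TPM is a read count divided by gene length and scaled to the same total in each library, so that a value is a share of the RNA of that library.

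Each ribosome consists of ribosomal RNA and about as many different proteins as there are genes of this kind, and the proteins are made in nearly equal numbers. Their mRNAs are among the most abundant of any cell and mostly begin with a 5′ terminal oligopyrimidine (TOP) tract, a run of C and T letters through which mTORC1 and LARP1 regulate their translation together. Growing and dividing cells make many ribosomes, and resting cells make few.

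From the step between the smallest TPM values, about 37600000 to 46900000 reads were counted per library, and 1 read per kilobase was worth 0.0607 to 0.0711 TPM. HFD-1 stood apart from the other libraries. The summed TPM of 10 spermatid markers was 7802 in HFD-1, against 2053 in ND-1, 2086 in ND-2 and 2331 in HFD-2, and no spermatid marker passed the test between diets. Cell type markers also differed between diets. All 8 T cell markers tested fell in HFD, with sums of 375 and 381 TPM on ND and 58.6 and 72.1 TPM on HFD, and of 6 B cell markers tested 5 fell and 1 rose (Cd22). Of 7 neutrophil markers tested 6 fell. Of 10 macrophage markers 4 fell (Csf1r, C1qa, C1qb and C1qc) and 2 rose (Adgre1 and Cd68), so these markers did not move together. Cd68 measured 873.7 and 847.9 TPM on ND and 1554.1 and 1574.1 TPM on HFD. The sum of the 10 was 20519 to 21176 TPM on ND and 17505 to 18843 TPM on HFD. Its largest part was Lyz2, at 7827.0 and 7618.1 TPM on ND and 6506.1 and 7124.7 TPM on HFD. All 10 markers of lipid-associated macrophages rose, with sums of 1682 and 1733 TPM on ND and 10803 and 11271 TPM on HFD. Of 9 fibroblast markers 6 rose, with sums of 628 and 672 TPM on ND, 3121 TPM in HFD-1 and 6255 TPM in HFD-2. Of 7 spermatocyte markers none passed the test, their sum being 137 and 146 TPM on ND, 388 TPM in HFD-1 and 101 TPM in HFD-2. Of 7 adipocyte markers tested 2 fell (Cfd and Retn) and 2 rose (Lep and Fabp4), with sums of 1001 and 1030 TPM on ND and 1234 and 1362 TPM on HFD. Most of these sums was Fabp4, at 950.5 and 980.5 TPM on ND and 1212.0 and 1346.5 TPM on HFD. The part of these cell types in the ribosomal protein values was not tested.

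The ribosomal protein genes together made up a smaller part of the RNA in HFD than in ND. Their summed TPM was 77592 in ND-1, 76288 in ND-2, 64465 in HFD-1 and 71633 in HFD-2, so the groups did not overlap. This was 7.76% and 7.63% of all TPM on ND and 6.45% and 7.16% in HFD. The ND libraries averaged 76940 ± 922 TPM and the HFD libraries 68049 ± 5069 TPM (SD, n = 2), which is 11.6% lower, with a log2 ratio of -0.18. The HFD libraries lay further from each other than the ND libraries did, and HFD-2 lay closer to ND than HFD-1. Without HFD-1 the log2 ratio was -0.10, and without HFD-2 it was -0.26. In bulk samples such as these, fewer cells of a type and less RNA per cell cannot be told apart.

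**Figure D1:**
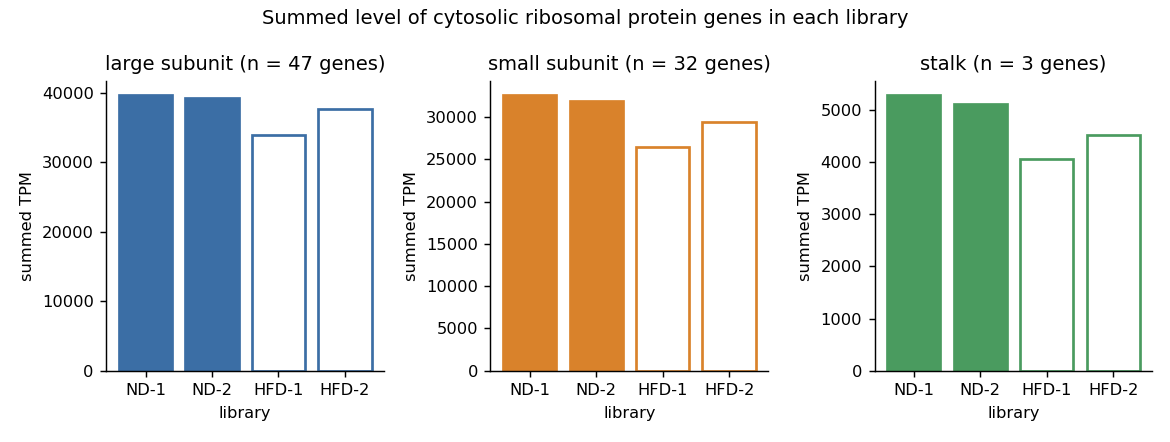
Summed TPM of the large subunit genes (n = 47), the small subunit genes (n = 32) and the stalk genes (n = 3) in each library, with 1 bar per library, filled for ND and open for HFD. In each panel both HFD bars are shorter than both ND bars, and the HFD-1 bar is the shortest.

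The small subunit and the stalk were lowered by a larger part than the large subunit. Large subunit genes summed to 39682 and 39259 TPM on ND and to 33968 and 37647 TPM on HFD, a mean 9.28% lower. Small subunit genes summed to 32627 and 31928 TPM on ND and to 26434 and 29473 TPM on HFD, a mean 13.4% lower. The stalk genes summed to 5282 and 5101 TPM on ND and to 4063 and 4514 TPM on HFD, a mean 17.4% lower. The ratio of the small to the large subunit sum, which does not depend on the scaling of a library, was 0.822 and 0.813 in ND and 0.778 and 0.783 in HFD. With 2 libraries per diet an exact permutation test of these sums or ratios cannot reach 0.05, so they are given as values.

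Gene by gene, most members were lower in HFD by a small amount, few of them passed the test, and none rose. A gene was tested when it had at least 1 TPM in at least 2 libraries, and values were compared as log2(TPM + 1) with limma over all 16849 genes tested. Of the 82 members 81 were tested. Rpl3l, a paralog of Rpl3 known from striated muscle, failed this filter with 0.3, 0.2, 0.1 and 0.1 TPM. At an adjusted p under 0.05, 7 of 81 members (8.64%) were lower in HFD, where 14.1% of all genes tested were lower. No member was higher, where 13.2% of all genes tested were higher. At an unadjusted limma p under 0.05, 34 members (42.0%) were lower and 0 were higher, where 21.0% of all genes tested were lower and 21.4% were higher. Requiring a change of at least 1.5-fold as well left 1 lower member, Rpl32l, against 10.3% of all genes tested, and 0 higher members, against 8.08%. The share of members called lower was below that of all genes at the adjusted threshold and above it at the unadjusted p.

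The direction was shared by most members. In 59 of the 81 both HFD values were below both ND values, which held for 32.8% of all genes tested, and in 3 both HFD values were above, which held for 34.1%. The median log2 fold change was -0.17 over the members, with 71 below 0 and 10 above, an interquartile range of -0.26 to -0.10 and a full range of -0.87 to 0.58. The median of all genes tested was 0.06. The members' median remained below 0 under each scaling tried except rescaling to the members' own total, which sets it near 0. The standard error of a member's log2 fold change had a median of 0.07. The median was -0.15 for the large subunit, -0.21 for the small subunit and -0.29 for the stalk.

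**Figure D2:**
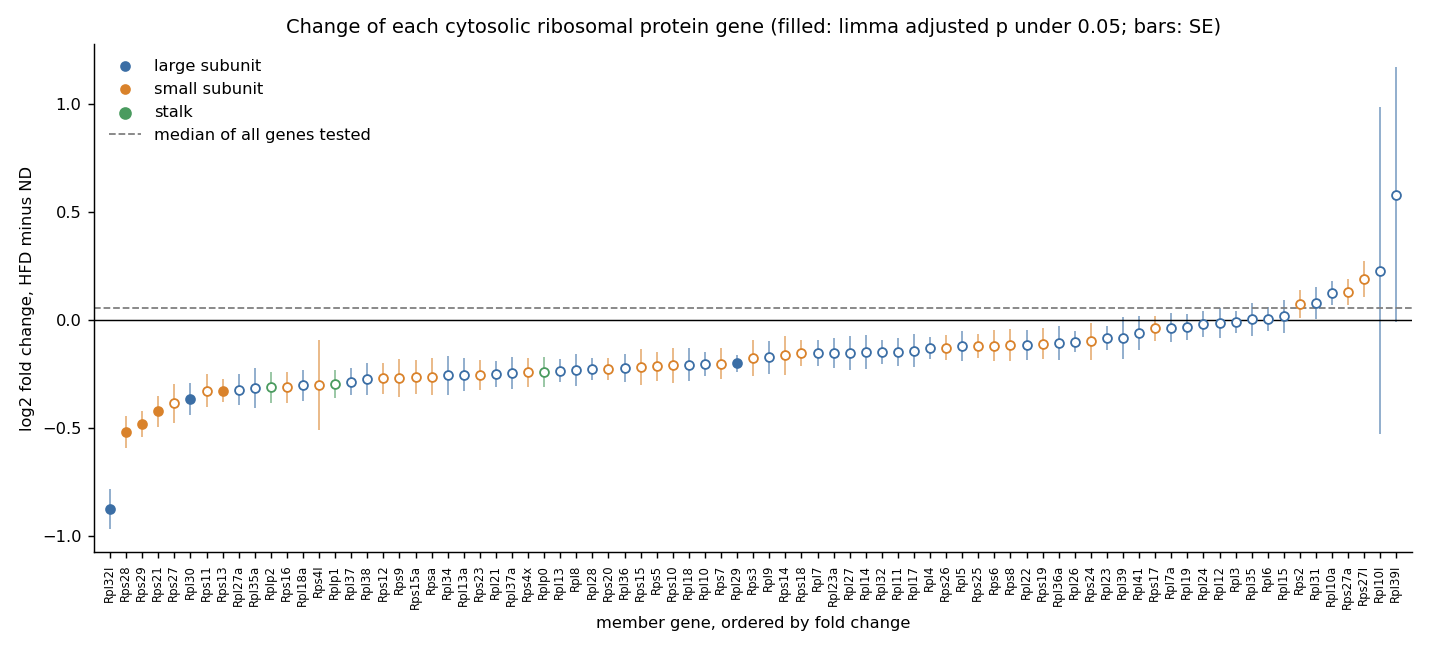
Log2 fold change on the log2(TPM + 1) scale (HFD minus ND) of the 81 members tested, in rising order, coloured by subunit, with SE bars. Filled points are the 7 members with a limma adjusted p under 0.05, the solid line is 0, and the dashed line is the median of all genes tested at 0.06. Most points lie between -0.35 and 0, with wide bars for Rps4l, Rpl10l and Rpl39l.

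The libraries within a diet differed in a way that involved the whole family. In HFD-2 the members were higher than in HFD-1 by a median log2 difference of 0.16, with 77 of 81 above 0. Over all genes tested the median was -0.07, with 5672 of 16849 above 0. Leaving out the paralogs whose names end in l, all 76 members were higher in HFD-2, by 0.03 to 0.22. HFD-1 held the lowest value of the 4 libraries for 73 of the 76, and how often this held was not counted over all genes. HFD-1 was also the library with the highest spermatid sum, and HFD-2 the library with the highest fibroblast sum. The part of either in these differences was not tested. Between the ND libraries the median difference was -0.02. Within a diet the order of the 76 members by level was almost the same, with a Spearman coefficient of 0.998 in both ND and HFD, and between the diet means it was 0.98. These are correlations across genes of the same libraries, and genes are not independent replicates.

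Leaving out a library changed which members passed. It also moved the median log2 fold change of all genes tested, to -0.07 without HFD-1 and 0.11 without HFD-2. For the 7 members called with all libraries, the log2 fold changes without HFD-1 and without HFD-2 were as follows. They were -0.18 and -0.21 for Rpl29, -0.28 and -0.45 for Rpl30, and -0.90 and -0.85 for Rpl32l. For Rps13 they were -0.27 and -0.38, for Rps21 -0.35 and -0.49, for Rps28 -0.45 and -0.59, and for Rps29 -0.45 and -0.51. All but Rpl32l were further below 0 without HFD-2. Rpl32l and Rps13 passed without either HFD library. Without either ND library 0 members and 0 of all genes tested had an adjusted p under 0.05 by limma.

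Among the small subunit genes, Rps28, Rps29, Rps21 and Rps13 fell. Rps28, a protein of the head of the small subunit, measured 663.6 TPM in ND-1, 617.1 TPM in ND-2, 424.8 TPM in HFD-1 and 469.4 TPM in HFD-2. Its log2 fold change was -0.52 with an SE of 0.07 and a limma adjusted p of 0.025. Rps29, a small zinc-binding protein of the same head, measured 1865.1 and 1717.4 TPM on ND and 1254.9 and 1313.7 TPM on HFD, with a log2 fold change of -0.48, an SE of 0.06 and a limma adjusted p of 0.019. In both genes the gap between the diets was larger than the gap between replicates. Rps21 measured 539.8 and 513.4 TPM on ND and 373.3 and 413.5 TPM on HFD, a log2 fold change of -0.42 with an SE of 0.07 and a limma adjusted p of 0.032. Rps13 measured 1133.2 and 1122.1 TPM on ND and 866.0 and 934.9 TPM on HFD, a log2 fold change of -0.33 with an SE of 0.05 and a limma adjusted p of 0.030. Rps13 is named here because it passed the test, after its values were seen, as are Rpl29 and Rpl30.

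Without HFD-1 the log2 fold changes were -0.45 for Rps28, -0.45 for Rps29 and -0.35 for Rps21, and their limma adjusted p-values were 0.073, 0.080 and 0.067. Rps13 kept its call without HFD-1, with an adjusted p of 0.038 by limma. Rps27, a zinc finger protein, had the fifth lowest change of all members and did not pass the test. It measured 676.6 and 645.4 TPM on ND and 470.2 and 544.6 TPM on HFD, a log2 fold change of -0.38 with a limma adjusted p of 0.062. Rps12, the small subunit gene with the highest level per length, measured 2165.2 and 2118.3 TPM on ND and 1674.2 and 1885.9 TPM on HFD, with a log2 fold change of -0.27 that did not pass. In both genes the HFD values were more spread than the ND values.

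At the other end, Rps27a and Rps2 were not lower. Rps27a is made as a fusion with ubiquitin, so that its mRNA also supplies free ubiquitin. It measured 503.3 and 519.4 TPM on ND and 536.5 and 584.8 TPM on HFD, a log2 fold change of 0.13 that did not pass the test. Rps2, which lies near the mRNA entry of the small subunit, measured 1369.5 and 1356.3 TPM on ND and 1361.2 and 1516.0 TPM on HFD, with overlapping diets. The range of small subunit changes, from -0.52 to 0.19, held 29 genes below 0 and 3 above.

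Among the large subunit genes, Rpl30, Rpl29 and Rpl32l fell. Rpl30, which binds RNA kink-turns, measured 543.5 and 520.9 TPM on ND and 390.5 and 437.1 TPM on HFD, with a log2 fold change of -0.36, an SE of 0.07 and a limma adjusted p of 0.046. Rpl29 had the smallest SE of all members, 0.04. It measured 177.8 and 181.0 TPM on ND and 154.5 and 157.9 TPM on HFD, a log2 fold change of -0.20 with a limma adjusted p of 0.042. Without HFD-1 their limma adjusted p-values were 0.072 for both genes, at log2 fold changes of -0.28 and -0.18. Rpl32l had the largest change but the least depth, with 4.5 and 4.3 TPM on ND and 2.0 and 1.9 TPM on HFD, or about 26, 28, 13 and 11 reads. Its log2 fold change was -0.87 with a limma adjusted p of 0.015. It has no coding sequence in GENCODE vM21 and resembles Rpl32, so reads of the 2 genes may have been split between them.

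The large subunit genes with the highest levels per length did not pass the test. Rpl10, which joins the subunit late and is needed for it to pair with the small subunit, measured 2228.7 and 2213.6 TPM on ND and 1847.3 and 2016.0 TPM on HFD, a log2 fold change of -0.20. Rpl13 measured 1958.0 and 1923.8 TPM on ND and 1586.3 and 1717.8 TPM on HFD, a log2 fold change of -0.23. Rpl41, which codes for the shortest protein of the ribosome, measured 2139.9 and 2067.0 TPM on ND and 1891.3 and 2151.7 TPM on HFD, with overlapping diets and a log2 fold change of -0.06 that was 0.03 without HFD-1. Rpl10a, a protein of the L1 stalk, had the highest change among the large subunit genes that are not paralogs ending in l. It measured 496.4 and 499.0 TPM on ND and 521.9 and 565.2 TPM on HFD, a log2 fold change of 0.13 that did not pass the test. Without HFD-1 it was 0.18, just past the threshold.

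The stalk proteins Rplp0, Rplp1 and Rplp2 form the arm that recruits elongation factors. Rplp1 had the highest level per length of all members, with 2741.2 and 2636.2 TPM on ND and 2085.2 and 2303.0 TPM on HFD. Rplp0 measured 1795.4 and 1758.6 TPM on ND and 1423.1 and 1593.4 TPM on HFD, and Rplp2 measured 745.8 and 705.9 TPM on ND and 554.3 and 617.1 TPM on HFD. The log2 fold changes were -0.24 for Rplp0, -0.29 for Rplp1 and -0.31 for Rplp2. None of the 3 passed the test. Both HFD values were below both ND values in all 3, as in 72.8% of the members tested and 32.8% of all genes tested.

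Of the ribosomal proteins known for work outside translation, or from anemia, 6 were examined and none passed the test. Rpl13a, part of the complex that silences translation of inflammatory mRNAs in interferon-treated myeloid cells, measured 1557.0 and 1519.7 TPM on ND and 1212.2 and 1375.3 TPM on HFD, a log2 fold change of -0.25. Rps3, also described as a partner of NF-κB, had a log2 fold change of -0.17. Rpl5 and Rpl11, which with 5S rRNA bind Mdm2, had log2 fold changes of -0.12 and -0.15. Rps6, the substrate of the S6 kinases, had -0.12, and Rps19, the gene most often affected in Diamond-Blackfan anemia, had -0.11. Both HFD values were below both ND values in all 6, as in 72.8% of the members tested and 32.8% of all genes tested.

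Relative to the other ribosomal protein genes, a few members passed the test, in each direction a smaller share than of all genes tested. When each library was rescaled to the members' own total, an alternative chosen after seeing the data, a change became that of a share of the ribosomal protein pool, and the median of all genes tested moved from 0.06 to 0.21. On this scale 4 of 81 members fell (4.94%: Rpl32l, Rps21, Rps28 and Rps29), where 7.72% of all genes were lower. Higher were 5 of 81 members (6.17%: Rpl10a, Rpl12, Rpl35, Rps2 and Rps27a), where 13.9% of all genes were higher. Of all genes called, 35.8% were lower on this scale, against 51.5% on the scale of the deposited values. Rps28 went from 0.855% and 0.809% of the pool in ND to 0.659% and 0.655% in HFD, a log2 change in share of -0.34 with a limma adjusted p of 0.024. Rps29 went from 2.40% and 2.25% to 1.95% and 1.83%, a log2 change in share of -0.30. Rps27a went from 0.649% and 0.681% to 0.832% and 0.816%, a log2 change in share of 0.31 with a limma adjusted p of 0.028. Rps2 went from 1.77% and 1.78% to 2.11% and 2.12%, a log2 change in share of 0.25 with a limma adjusted p of 0.017. Rpl10a, Rpl12, which lies at the base of the stalk, and Rpl35, which lies near the exit of the peptide tunnel, had log2 changes in share of 0.30, 0.17 and 0.18.

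Letters around the annotated transcript start are shown for 3 genes that were among the lowest and for 3 genes whose share of the pool rose, to let their starts be compared. The sequences are those of RefSeq for GRCm38.p6, given from 15 bases before the first transcribed base to 15 bases from it on, in the direction of the gene, and the capitals mark the longest run of C and T in the window. Rps28 lies at chr17:33824548-33824577 (minus strand), Rps21 at chr2:180257364-180257393 (plus), Rps27 at chr3:90213634-90213663 (minus), Rpl35 at chr2:39005117-39005146 (minus), Rpl10a at chr17:28328456-28328485 (plus) and Rps2 at chr17:24720048-24720077 (plus).
Rps28: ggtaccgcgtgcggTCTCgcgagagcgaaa
Rps21: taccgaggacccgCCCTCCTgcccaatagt
Rps27: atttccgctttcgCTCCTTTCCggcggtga
Rpl35: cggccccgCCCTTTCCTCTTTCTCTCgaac
Rpl10a: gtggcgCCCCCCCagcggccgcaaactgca
Rps2: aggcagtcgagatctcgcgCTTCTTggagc

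The longest run was 4 letters in Rps28 and 18 letters in Rpl35, and the others lay between them. The genes shown are a choice made without a rule. Among members not shown, Rps13 and Rpl32l, which fell, had longest runs of 3 and 10 letters in the window. Rpl12, whose share of the pool also rose, had 7. Promoter sequences were found for 61 of the 82 members. A run of at least 8 C or T letters on the strand of the gene within 30 bases of the annotated start was present in 32 of the 61 (52.5%) and in 22.8% of all 27025 promoters of the table. The letters CCGGAAGT, a site of Ets family factors, were present on either strand within the 300 bases from 250 before to 50 after the start in 12 members (19.7%) and in 4% of all promoters. AAGATGGC, the YY1 site, was present in 6.56% of the members and 2.88% of all, CACGTG, the E-box, in 8.20% and 7.24%, and TATAAA in 9.84% and 14.2%. The Ets and YY1 motifs cannot overlap by more than 1 letter on either strand. Among members tested, without paralogs ending in l, the median log2 fold change was -0.15 for the 29 with a run of at least 8 and -0.175 for the 27 with shorter runs, with ranges of -0.38 to 0.08 and -0.52 to 0.13. A match is a description of letters at an annotated start, and the start used in these cells was not measured.

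Members that code for short proteins had the lower median changes. The 9 members with proteins under 100 residues had a median log2 fold change of -0.28, and 3 of them fell (Rps21, Rps28 and Rps29, with 83, 69 and 56 residues). The 27 members of 100 to 150 residues had a median of -0.22, the 19 of 150 to 200 residues a median of -0.17, and the 21 longer ones a median of -0.15. In these 3 classes 1, 2 and 0 members fell by limma at the adjusted threshold. Over all members tested 8.64% fell, and over all genes tested 14.1%. Each class holds few calls, so these counts are given as values. Rpl41 and Rpl39, the shortest, with 25 and 51 residues, had log2 fold changes of -0.06 and -0.08. Over the 76 members the Spearman coefficient between protein length and log2 fold change was 0.31. It was 0.37 over 30 small subunit genes and 0.28 over 46 genes of the large subunit and stalk. Between protein length and the log2 difference of HFD-2 over HFD-1 it was -0.09 over the 76 members. There it was 0.34 over the small subunit genes and -0.32 over those of the large subunit and stalk. Within the subunits, coefficients of similar size thus also occurred between libraries of the same diet. The coefficient between mean TPM and log2 fold change was -0.02. These points share the same 4 libraries, and TPM divides by length, so the coefficients are descriptions across genes.

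**Figure D3:**
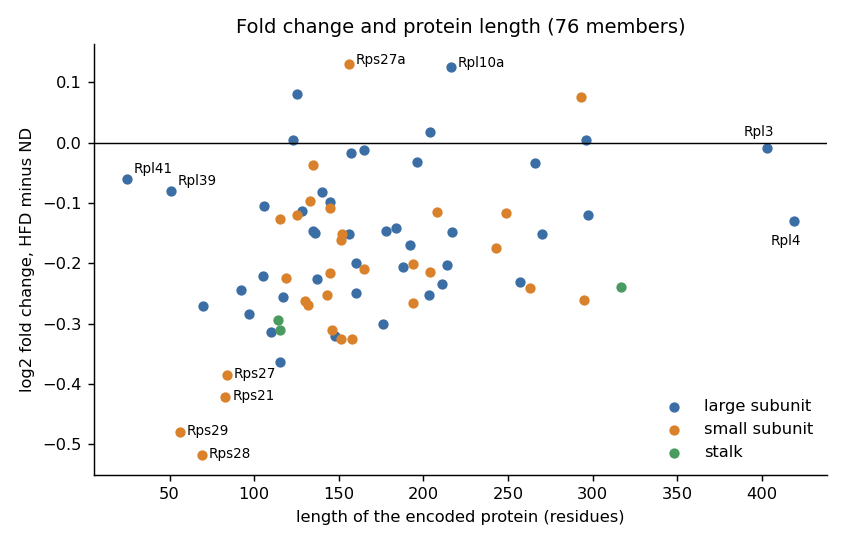
Log2 fold change on the log2(TPM + 1) scale (HFD minus ND) against the number of residues of the encoded protein for 76 members, coloured by subunit. Rps28, Rps29, Rps21 and Rps27 form the low left corner, Rpl41 and Rpl39 lie at the left near 0, and the Spearman coefficient is 0.31.

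Paralogs that are known from particular tissues followed other patterns. Rpl10l and Rpl39l, known from the testis, where they stand in for the X-linked Rpl10 and for Rpl39, were highest in HFD-1. Rpl10l measured 15 and 19.6 TPM on ND, 40.5 TPM in HFD-1 and 9.9 TPM in HFD-2. Rpl39l measured 10.6 and 11.9 TPM on ND, 30 TPM in HFD-1 and 9.8 TPM in HFD-2. HFD-2 was the lowest library for both, so the diets overlapped, and the log2 fold changes of 0.23 and 0.58 had SEs of 0.76 and 0.59. Without HFD-1 they were -0.74 and -0.18. The spermatid marker sum was also highest in HFD-1, as given above, and its part in these values was not tested.

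**Figure D4:**
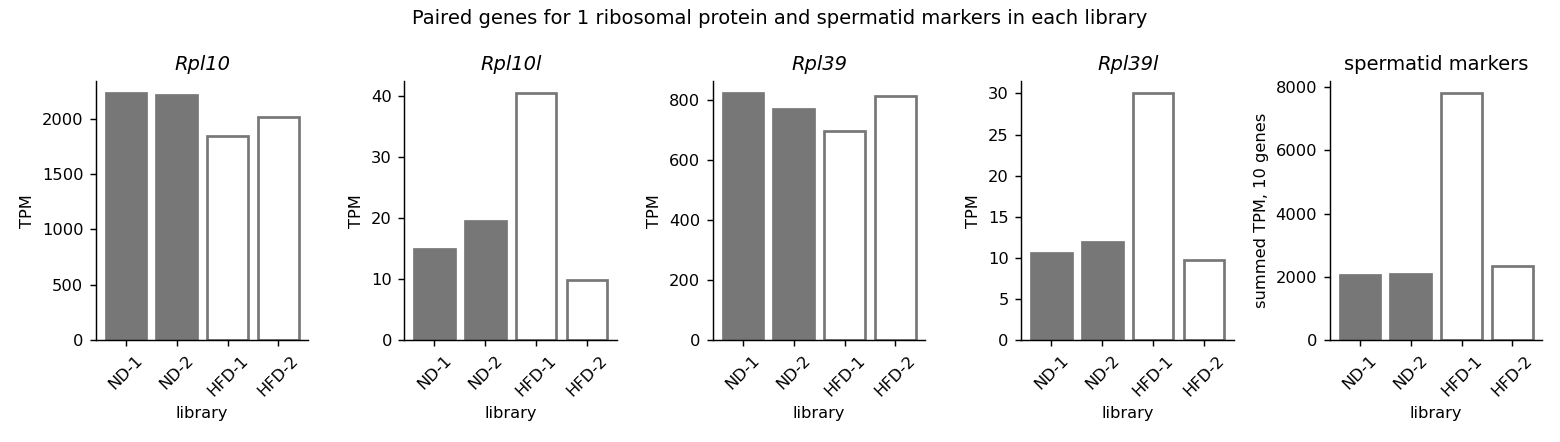
TPM of Rpl10, Rpl10l, Rpl39 and Rpl39l and the summed TPM of 10 spermatid markers in each library, with 1 bar per library, filled for ND and open for HFD. Rpl10l, Rpl39l and the marker sum are highest in HFD-1, at 40.5, 30 and 7802 TPM, whereas Rpl10 and Rpl39 are lowest there.

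Rpl39, which lines the exit tunnel, measured 822.0 and 769.9 TPM on ND and 696.9 and 812.5 TPM on HFD, with overlapping diets. Rpl3, which helps to form the peptidyl transferase centre, was nearly level, with 620.5 and 631.4 TPM on ND and 600.5 and 644.5 TPM on HFD, a log2 fold change of -0.01 that was 0.04 without HFD-1. Rps27l, a target of p53, measured 69.4 and 76.0 TPM on ND and 79.1 and 87.1 TPM on HFD, with separate diets and a log2 fold change of 0.19 that did not pass the test, against -0.38 for Rps27. Rps4x, which is X-linked, had a log2 fold change of -0.24, and its autosomal copy Rps4l, with no coding sequence in GENCODE vM21, measured 53.0 and 56.0 TPM on ND and 53.1 and 36.6 TPM on HFD.

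Further paralogs lie outside the name rule. Rpl22, needed for T cell development, had a low level for a member, with 44.6 and 45 TPM on ND and 39.4 and 43.4 TPM on HFD. Its paralog Rpl22l1 was at 107.6 and 111.1 TPM on ND and 120.3 and 125.8 TPM on HFD, so that the log2 fold changes were -0.11 and 0.17. Rpl7 had -0.15, and Rpl7l1, a nucleolar paralog, had 0.21. Rpl36a had -0.11 and its near-identical partner Rpl36al -0.14. None of these 6 genes passed the test.

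In reading the lists that follow, 14.1% of all genes tested fell and 13.2% rose at the adjusted threshold. The other genes of ribosome proteins that the name rule leaves out were mostly lower too. Of 9 such genes tested 7 were below 0, 2 fell (22.2%) and 0 rose, with a median log2 fold change of -0.16. The 7 include Rsl24d1, an assembly factor, whose log2 fold change of -0.0014 was level. They also include Rack1, which is in the list of other TOP mRNAs as well. Fau, a fusion of Rps30 with a ubiquitin-like protein, fell from 650.4 and 645.7 TPM on ND to 501.3 and 553.2 TPM on HFD, a log2 fold change of -0.30 with a limma adjusted p of 0.049. Rps27rt, a copy of Rps27, fell from 80.2 and 74.7 TPM to 36.1 and 42.1 TPM, a log2 fold change of -0.97 with a limma adjusted p of 0.014. Rpl37rt, a copy of Rpl37 named after its values were seen, fell from 25.8 and 25.2 TPM to 13.0 and 16.7 TPM, a log2 fold change of -0.75 with a limma adjusted p of 0.041. Adding 5 genes that code for ribosome proteins outside the rule left the log2 ratio of the sums at -0.18.

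Of 12 pseudogenes of ribosomal proteins named with -ps, 5 fell (41.7%, against 14.1% of all genes tested) and 0 rose. All 12 had log2 fold changes below 0, with a median of -0.49, and the diets overlapped in some of them. Rps15a-ps6 measured 8.3 and 6.9 TPM on ND and 1.7 and 2.9 TPM on HFD, a log2 fold change of -1.40, and Rps15a-ps5 measured 5.0 and 3.2 TPM on ND and 1.3 and 1.5 TPM on HFD, a log2 fold change of -1.07. At the other end Rpl34-ps1, with overlapping diets, and Rpl17-ps10 had log2 fold changes of -0.03 and -0.10. Processed copies share sequence with their parent genes, and how reads with several matches were counted was not given in the sources used here, so values of parents and copies are uncertain to that extent.

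Mitochondrial ribosomal proteins, which translate the mitochondrial genome, had mostly higher values in HFD. Of 77 tested 15 rose (19.5%, against 13.2% of all genes tested) and 2 fell (2.6%), with a median log2 fold change of 0.20, which stayed above 0 under every alternative run. Mrpl44 rose from 13.5 and 15.3 TPM on ND to 32.5 and 31.1 TPM on HFD, a log2 fold change of 1.09 with a limma adjusted p of 0.010. Mrpl47 measured 16.8 and 22.5 TPM on ND, 40.1 TPM in HFD-1 and 21.6 TPM in HFD-2, which was no change past the test. Mrpl49 fell by 0.32 on the log2 scale, and Mrpl23 had -0.27 without passing. The summed cytosolic level was 23.2 and 22.3 times the summed mitochondrial level in ND and 16.9 and 18.9 times in HFD.

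Other mRNAs with a TOP tract had a median near 0. Of 20 tested 1 fell (5%) and 3 rose (15%), the latter close to the 13.2% of all genes tested, with a median log2 fold change of 0.07 that was -0.04 after quantile normalization. Npm1, a nucleolar chaperone of ribosome assembly, rose from 159.9 and 168.9 TPM on ND to 212.4 and 214.3 TPM on HFD, and Eef1g, a subunit of elongation factor 1, rose from 563.7 and 567.2 TPM to 695.5 and 717.5 TPM. Eif3f fell from 552.7 and 539.2 TPM to 445.6 and 441.7 TPM, and Eif4a2 had a log2 fold change of -0.37 without passing. The members' sum was 4.83 and 4.80 times that of the other TOP mRNAs in ND and 4.11 and 4.30 times in HFD, a ratio that no scaling of a library can move.

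Of 15 genes that host small nucleolar RNAs (snoRNAs) in their introns, 4 fell (26.7%, against 14.1% of all genes tested) and 0 rose. Their log2 fold changes were below 0 in 11 and above 0 in 4, with a median log2 fold change of -0.28, below 0 under every alternative run. Snhg8 fell from 111.8 and 110.8 TPM on ND to 52.8 and 59.3 TPM on HFD, a log2 fold change of -0.98 with a limma adjusted p of 0.009. Snhg12, Snhg15 and Epb41l4aos also fell, by 0.74, 0.49 and 0.56 on the log2 scale. Snhg9 measured 18 and 14.9 TPM on ND and 4.7 and 10.1 TPM on HFD without passing, and Snhg6 and Snhg17 had log2 fold changes of 0.28 and 0.50 that did not pass. Many members also carry snoRNAs in their introns.

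Ribosome assembly factors had medians above 0 under every alternative run. Of 36 large subunit factors 5 rose (13.9%) and 1 fell (2.78%), with a median log2 fold change of 0.17. Of 38 small subunit factors 5 rose (13.2%) and 2 fell (5.26%), with a median of 0.13. The shares that rose were near the 13.2% of all genes tested. Rrs1, needed for large subunit maturation, rose from 29.1 and 29.4 TPM on ND to 52.7 and 49.3 TPM on HFD, and Rrp1 rose by a log2 fold change of 0.42. Krr1 and Mphosph10, components of the small subunit processome, rose by log2 fold changes of 1.01 and 0.90. Zfp622, which acts on late large subunit precursors, and Bysl and Wdr3, small subunit factors, fell by 0.54, 0.48 and 0.33 on the log2 scale. Nmd3, the export adaptor of the large subunit, had -0.30 without passing.

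RNA polymerase I genes had a median log2 fold change of -0.02, with 1 of 15 falling (6.67%), Znrd1, by 0.49 on the log2 scale. Twistnb, Cd3eap and Ttf1 had 0.24, 0.17 and -0.34 without passing. The 9 proteins that bind box C/D and H/ACA RNAs had a median of -0.07. Fbl, the rRNA methyltransferase fibrillarin, fell from 261.0 and 252.4 TPM to 182.0 and 202.1 TPM, and Nhp2 rose from 82.9 and 89.7 TPM to 113.3 and 117.8 TPM. Nop56 and Nhp2l1 had log2 fold changes of 0.11 and -0.16 without passing.

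Of 54 genes named as initiation factors 16 rose (29.6%) and 4 fell (7.41%), against 13.2% and 14.1% of all genes tested. Their median log2 fold change was 0.08, and -0.04 after quantile normalization. Taken by name, the list also holds kinases of eIF2 and inhibitors of Eif4e, which are not initiation factors. The kinase Eif2ak3 and the inhibitor Eif4ebp2 were among the 4 that fell. Eif4e, the cap-binding protein, rose from 10.6 and 10.9 TPM on ND to 18.9 and 17.0 TPM on HFD, and Eif2s1, a subunit of eIF2, rose from 56.1 and 62.0 TPM to 93.9 and 92.7 TPM. Eif4ebp2, an inhibitor of Eif4e, fell by 0.42 on the log2 scale. Of 19 regulators of ribosomal protein synthesis 3 rose (15.8%) and 2 fell (10.5%), near the shares of all genes tested, with a median of 0.08. The initiation factor list shares genes with the TOP list and with the regulators. Among them Eef2k, the kinase of elongation factor 2, fell by 0.65 on the log2 scale, and Myc measured 22.1 and 23.4 TPM on ND and 31.0 and 45.8 TPM on HFD without passing.

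**Figure D5:**
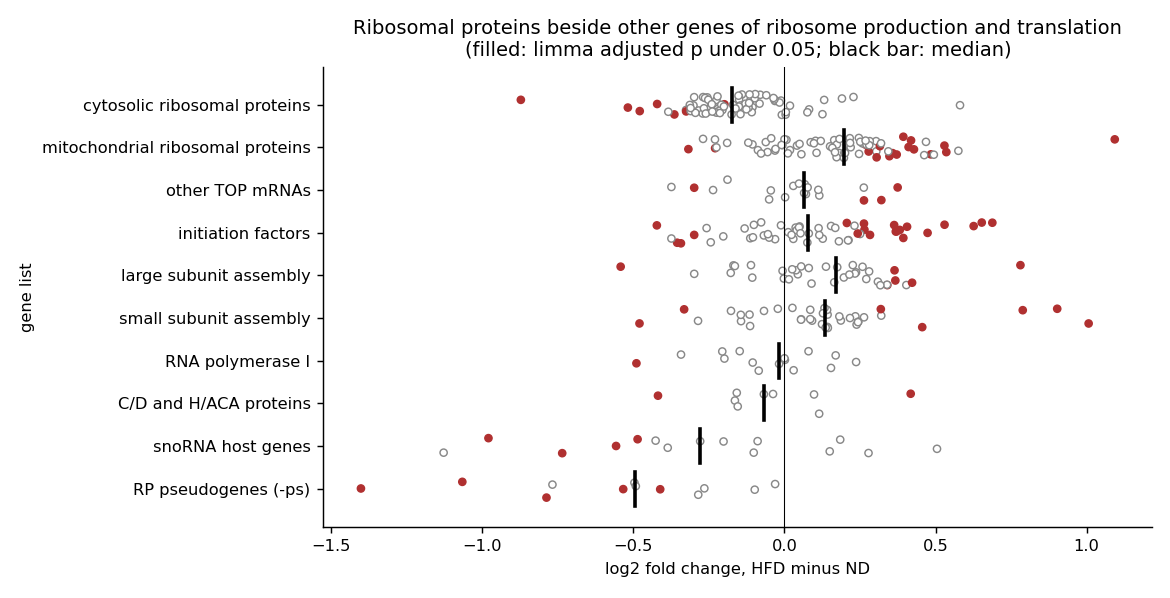
Log2 fold change on the log2(TPM + 1) scale (HFD minus ND) of each tested gene in 10 lists, with 1 point per gene, filled where the limma adjusted p is under 0.05, and a black bar at the list's median. The cytosolic ribosomal proteins form a narrow band with its median at -0.17, the mitochondrial ones have a median of 0.20, and the snoRNA host genes and pseudogenes have medians of -0.28 and -0.49.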

How the data were processed

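Per the labels and the study's methods, the authors trimmed reads with Trim Galore 0.4.2 and cutadapt 1.9.1, aligned them to mm10 with STAR 2.6.1e, discarded duplicates (Sambamba), assigned reads to genes with featureCounts 1.6.2 and deposited TPM values. Removing duplicates without molecular identifiers lowers the highest counts of short, abundant genes, a class to which the ribosomal protein genes belong, and the effect was not tested. The annotation, the use of strand and the handling of reads with several matches were not given in the sources used here. Without them, genes with near-identical copies, overlapping genes and antisense genes are uncertain.

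The 4 tables were joined by gene symbol into 35869 genes, and 16849 with at least 1 TPM in at least 2 libraries were tested. Because TPM are not counts, log2(TPM + 1) was fitted by diet in limma 3.58.1 (R 4.3.3; lmFit and trended eBayes), with Benjamini-Hochberg adjustment over all genes tested. A fold change on the log2(TPM + 1) scale understates the change of low genes. The steps were tested on simulated data. Depth was estimated from the TPM steps of microRNA genes, whose reads come in whole numbers, and exon and protein lengths were taken from GENCODE vM21. Promoters came from RefSeq for GRCm38.p6, with the first listed start of each gene. Tables were handled with Python 3.11.15. Replicates differed by more than counting error, by a factor of 2.57 in ND and 9.00 in HFD (root mean square). By a median-based spread the factors were 1.44 and 3.17. No library was therefore counted as a duplicate, but these factors cannot tell technical from biological replicates. Precision is limited by 2 libraries per diet.

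The members and all lists were chosen with earlier results of these data known. Named members were the 5 with the highest mean TPM, the 5 highest and 5 lowest log2 fold changes, the stalk genes, members with a tissue-restricted paralog, and 6 members with known work outside translation or in Diamond-Blackfan anemia; of each other list, the 2 highest and 2 lowest log2 fold changes. Alternatives were other pseudocounts, filters, scalings, a variance without trend, a replicate block and leaving out each library.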

Additional observations from a re-analysis of the deposited data

How the results depend on the processing

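The main fit called 7 of 81 members and 2372 of 16849 genes lower (adjusted p under 0.05, limma). With no filter 2 of 82 members and 1744 of 29097 genes were lower. With a mean TPM of at least 5 it was 17 of 80 and 1792 of 10723. The other settings tested 81 members and 16849 genes. Without a variance trend 3 members and 2253 genes were lower. The replicate number as a block gave 0 and 405, and median-ratio scaling 1 and 2250. Quantile normalization gave 27 and 2334 (1 member higher), and rescaling without the 50 highest other genes 15 and 2786. Rescaled to the member total, chosen after seeing the data, 4 members and 1301 genes were lower and 5 members higher. The count of 7 was unchanged with a pseudocount of 0.1 or 5 and when rescaled to the non-member total. Whether members were called lower more or less often than all genes thus depended on the setting. Leaving out 1 library gave 0 to 49 lower and 0 to 1 higher members, the lone sample being assumed to vary like the other diet. The 1 lower member past 1.5-fold became 0 with a pseudocount of 5, a mean TPM of at least 5 and the replicate block, and 0 to 2 on leaving out 1 library, with 0 to 1 higher. The members' median log2 fold change was -0.24 to -0.17 under the planned settings with all 4 libraries, -0.26 to -0.11 without 1 library and 0.0039 when rescaled to the member total. The log2 ratio of the sums was -0.26 to -0.10 without 1 library. Rescaled to the member total, changes in share turned above 0 for Rpl11 (0.033), Rpl22 (0.062), Rpl3 (0.17), Rpl36a (0.073), Rpl39 (0.10), Rpl41 (0.12), Rpl5 (0.059), Rpl7 (0.028), Rps19 (0.070), Rps3 (0.0039) and Rps6 (0.062), as this scale sets the members' sum equal in all libraries. Leaving out 1 library gave log2 fold changes of -0.060 to 0.042 for Rpl3, -0.74 to 1.19 for Rpl10l, -0.19 to 0.030 for Rpl39, -0.18 to 1.34 for Rpl39l and -0.15 to 0.033 for Rpl41. The causes were not tested.

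Equal replicate numbers were not taken to pair libraries, since the correlation of their deviations over all genes tested was -0.015, and the block also left 405 lower and 407 higher of all genes. Without either ND library 0 genes were called. Rpl3l, at 0.1 to 0.3 TPM, rested on about 2 to 7 reads per library.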
